A study of Saccharomyces cerevisiae
Saccharomyces paradoxus with 24 samples.

Results

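The first 5 min of Rap1 depletion were followed at 1118 windows of the Saccharomyces cerevisiae genome that the study called as bound by Rap1. They were read in 4 of the 24 libraries of the series: a 0 min and a 5 min ChIP library from each of 2 strain isolates. The 4 libraries were chosen by their labels, and every window of the deposited table was kept. Each 5 min library was compared with the 0 min library of its own isolate. Windows of 1 library share its cells, its immunoprecipitation and its scaling, so the number of replicates is 2 isolates, however many windows are counted.

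Rap1 is an essential, sequence-specific DNA-binding protein of budding yeast. It activates most ribosomal protein genes and many genes of glycolysis and translation, binds the telomere repeats, and recruits Sir proteins to telomeres and to the silencers of the silent mating-type loci. In an anchor-away experiment, rapamycin joins a nuclear protein fused to the FRB domain to a ribosomal protein fused to FKBP12, and the passage of that ribosomal protein to the cytoplasm takes the nuclear protein along. Rap1 that is free is removed in this way, while Rap1 on DNA becomes available as it lets go.

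Both isolates, JRy15237 (isolate 1) and JRy15238 (isolate 2), carried the same alleles. Rap1 was tagged as Rap1(134)-FRB_2xV5 and the anchor was RPL13A-2xFKBP12::TRP1, with fpr1::NAT and TOR1(S1972I), which make cells insensitive to rapamycin itself. At the mating-type loci both had hmlalphadelta::UniqueHMLwithSNPs and hmrdelta::HygMX, and both were bar1delta::k.l.URA3. The remaining markers shared by all 4 samples were lys2, ura3, trp1-1, can1-100, the leu2 mutations 3 and 112, and the his3 mutations 11 and 15. The 0 min cells had been kept in DMSO, the solvent, for 60 min, and the 5 min cells had rapamycin at 7.5 µM. The 2 times therefore differ both in Rap1 release and in exposure to rapamycin, which cannot be told apart here. Cells of S. paradoxus with a V5-tagged Rap1 that never met rapamycin were added at 5% by optical density, and the signal of a window is its reads for every 1000000 S. paradoxus reads. ChIP averages over the cells of a culture, so fewer cells with Rap1 at a site and less Rap1 time per cell give the same value.

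Reads at HML and MAT can be told apart because HML was rewritten with single-base differences. The stretches below, taken from a primer and a synthetic DNA block the study designed for chromosome III, show such differences over 22 bases, in 5′ to 3′ direction, with the 2 differing bases in capitals.
Standard alpha, primer stretch: aagttccaacattttaTgttTc
Unique HML, primer stretch: aagttccaacattttaAgttAc

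The libraries were of similar depth. S. paradoxus reads numbered 7323681 and 5066384 at 0 min and 6542211 and 4792037 at 5 min, and the 1118 windows held between 3097294 and 3401521 reads in each library. The median window held 708.5 and 718.5 reads at 0 min and 590.5 and 573.5 reads at 5 min. Windows spanned 150 bp on either side of a summit except for 10 that reach a chromosome end, and 85 overlapped another window and so share reads with it.

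Over all windows, little Rap1 signal had gone by 5 min. The median signal was 96.7 and 141.8 at 0 min in isolates 1 and 2, and 90.3 and 119.7 at 5 min. The median window kept 97.3% of its 0 min signal in isolate 1 and 87.9% in isolate 2, log2 changes of -0.04 and -0.18 (mean -0.11 ± 0.10, SD, n = 2). The 2 isolates differed from each other by 0.14 on this scale, which is more than the mean change itself. With 2 pairs an exact permutation test cannot give a two-sided p below 0.5. By 10 min, in other libraries of the same isolates, the median window was at 49.2% of its 0 min level.

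Windows did not move together. In isolate 1, 648 windows were below and 470 above their own 0 min signal, and in isolate 2, 931 were below and 187 above. Of the 1118 windows, 627 were lower in both isolates (56.1%) and 166 were higher in both (14.8%), leaving 325 with opposite signs. Counting error was set apart with an exact 95% interval for the ratio of reads in each isolate, which covers counting error only. Beyond it, 287 windows (25.7%) were lower in both isolates and 55 (4.92%) were higher in both. The changes of the 2 isolates, which share no library, had a Pearson correlation of 0.76 and a Spearman correlation of 0.75 across the 1118 windows, given as a description since windows are not independent. The 112 lowest windows of each isolate had 73 in common, and the 112 highest had 48.

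**Figure D1:**
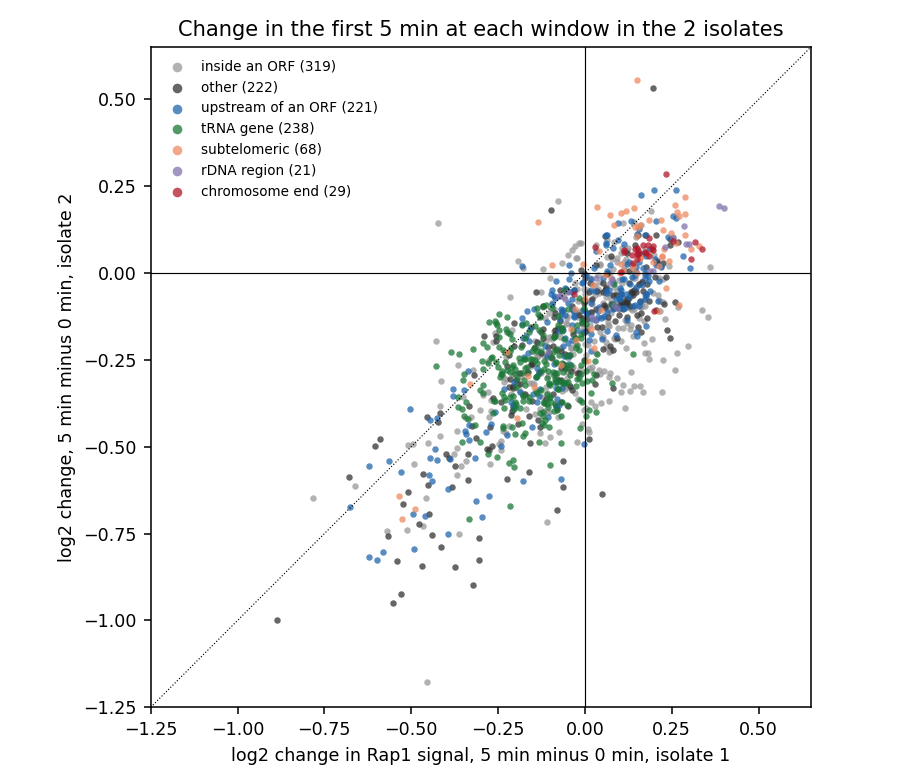
Log2 change in Rap1 signal from 0 to 5 min in isolate 1 (x axis) and isolate 2 (y axis), 1 point per window, coloured by kind of window with the number of windows in brackets. The dotted line marks equal change. Most points lie below it, as the median changes of -0.04 and -0.18 state, tRNA windows lie in the lower left, and chromosome end windows lie in the upper right.

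2 tests were fitted with limma to all 16 ChIP libraries of the time course, with the isolate as a block, on log2(signal + 1), where a fold change understates that of low windows. On the S. paradoxus scale, 1 window was lower at 5 min (0.0894%) and 0 were higher (0%) at a Benjamini-Hochberg adjusted p under 0.05. At an unadjusted p under 0.05 these counts were 81 and 0. Relative to the median window of each library, which removes any shift a library shares, 26 windows were lower (2.33%) and 5 were higher (0.447%), with 81 and 170 at an unadjusted p under 0.05. The reference itself, the median signal of a library, was lower at 5 min by a mean log2 change of -0.17, so a window at its 0 min level on the S. paradoxus scale lies above the reference. Standard errors were near 0.21 on the first scale and 0.12 on the second. The 26 and the 5 depend on the design: without the isolate block 1 and 0 windows passed, and with the 4 libraries of 0 and 5 min alone 135 and 349 did. Leaving out the 0 min library of isolate 1 left 1 lower and 1 higher, that of isolate 2 left 1 and 0, and the 5 min libraries of isolates 1 and 2 left 6 and 0, and 1 and 0. In each of these fits all 26 kept their lower and all 5 their higher sign. These windows were picked from the same libraries and moved the same way in both isolates, so the kept signs are no separate support.

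The window that fell on both scales lies on chrXV:520600-520900, between VAM3, which encodes a vacuolar syntaxin, and RGS2, a regulator of G-protein signalling. Its signal went from 62.9 to 33.6 in isolate 1 and from 94.3 to 46.7 in isolate 2. Both 5 min libraries lie below both 0 min libraries, with 53.4% and 49.5% of the signal left. The log2 change was -0.94 with a standard error of 0.205 (limma adjusted p = 0.035), or -0.77 relative to the median window. On the S. paradoxus scale 0 windows passed when any 1 of the 4 libraries was left out, without the isolate block, with a pseudocount of 0.1 or with a variance trend, so this call was lost in each. The counting intervals of the ratio, 0.453 to 0.629 and 0.421 to 0.582, lie well away from 1.

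The other windows with the largest falls relative to the median window kept 58.1% to 62.4% of their signal on average. Their mean 0 min signals ran from 71.6 to 236, against 78.6 at the chrXV window. The window in NAT4, the gene of a histone N-terminal acetyltransferase (chrXIII:408295-408595), went from 53.1 and 90.005 to 38.5 and 39.2, so the isolates kept 72.5% and 43.6%. The EXG1 window, upstream of the gene of a cell wall exoglucanase (chrXII:728306-728606), went from 77.2 and 122.2 to 52.3 and 62.8. The window on chrXIII:306583-306883, between SOK2, a transcription factor of filamentous growth, and SPO20, a SNARE protein of sporulation, went from 69.9 and 116.5 to 48.1 and 60.9. In NAT4, EXG1 and the SOK2 to SPO20 window both isolates moved the same way, with more lost in isolate 2.

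The remaining windows were also lower in both isolates. TVP15, a Golgi membrane protein gene (chrIV:654719-655019), had 121.1 and 180.0 at 0 min against 78.4 and 101.6 at 5 min. In TRM5, the gene of a tRNA methyltransferase (chrVIII:236028-236328), 57.6% and 63.5% were left, and upstream of YMR265C and RSN1, divergent genes on chrXIII:797909-798209, 62.3% and 62.6%. The strongest of these windows was that of GSR1 (chrXIII:858968-859268), where 201.3 and 271.0 became 132.5 and 152.3. The YGR050C window (chrVII:592470-592770) kept 66.5% and 57.0%. The window on chrXI:322382-322682, between YKL063C and the stress transcription factor gene MSN4, kept 68.4% and 56.1%. Log2 changes relative to the median window at these 9 and the chrXV window ran from -0.77 to -0.50, with limma adjusted p from 0.000491 to 0.045.

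The 26 windows that fell relative to the median window had 51.5% to 68.0% of their signal left (median 63.9%), and all 26 were lower in both isolates beyond counting error. Their 0 min signals were 71.6 to 236 (median 114), near the median of 119 over all windows, and their 0 min input signals had a median of 332 against 295 over all windows. An open reading frame (ORF) started within 500 bp downstream of the summit at 13 of the 26, against 459 of all 1118. By kind of window, 7 lay upstream of an ORF, 6 inside an ORF, 3 in subtelomeric sequence and 10 elsewhere between genes, while 0 of the 238 tRNA windows and 0 of the 115 ribosomal protein windows were among them. At 2.33% over all windows few of either could be looked for, so these counts of 0 are given without a reading. Their neighbours serve many functions: RPC37 codes for a subunit of RNA polymerase III, STB5 for a transcription factor, PLB1 for a phospholipase, LSM5 for a member of the ring that binds RNA for decay, PDR15 for a drug transporter, and COQ2 and RCF2 for mitochondrial proteins. At 10 min the 26 windows kept 19.9% to 36.8% of their 0 min signal (median 25.8%), against a median of 49.2% over all windows. The 0 min libraries enter both percentages.

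**Figure D2:**
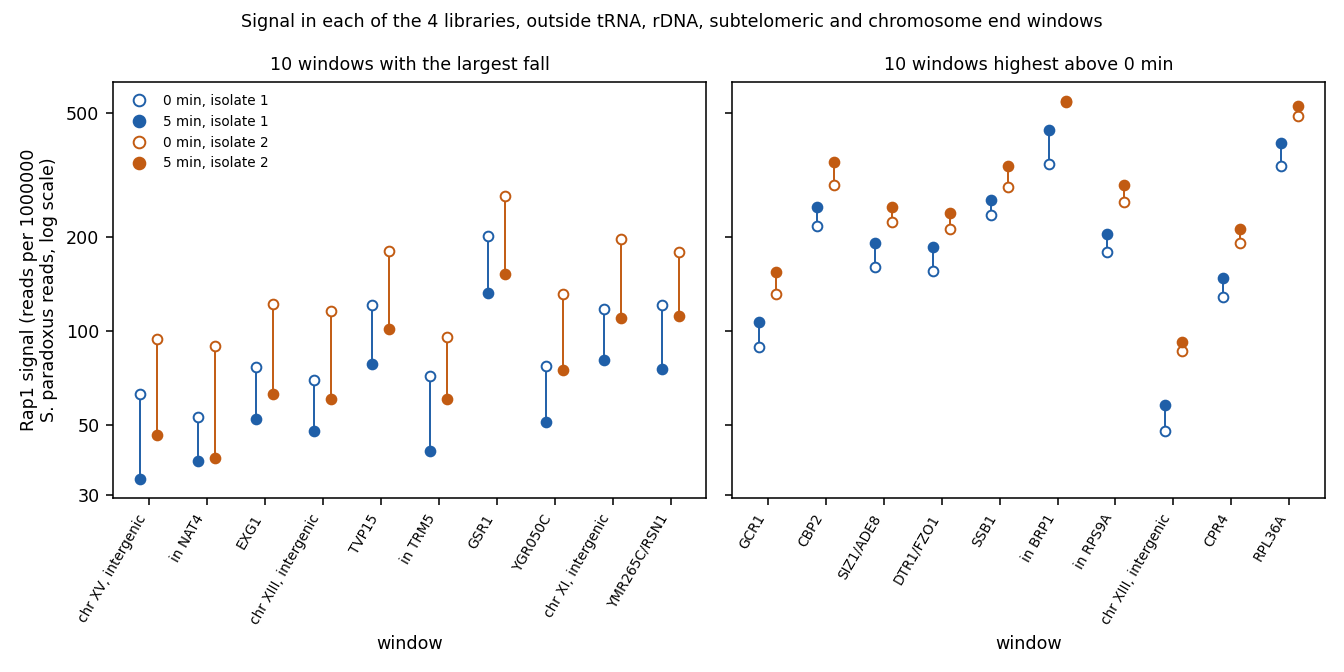
Rap1 signal (y axis, log scale, reads per 1000000 S. paradoxus reads) in each of the 4 libraries at the 10 windows with the largest mean fall (left) and the 10 highest above 0 min (right), among windows that moved the same way in both isolates, have a mean signal of at least 50 and lie outside tRNA, rDNA, subtelomeric and chromosome end windows. Open circles are 0 min and filled circles 5 min, blue for isolate 1 and orange for isolate 2. At left both filled circles lie below their open circles, as at chrXV, where 62.9 and 94.3 became 33.6 and 46.7, and at right both lie above, as at GCR1, where 89.3 and 131.3 became 107.3 and 155.3.

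Several windows stood above their 0 min signal in both isolates. At GCR1, the gene of an activator that works with Rap1 at glycolytic genes (chrXVI:411880-412180), 89.3 and 131.3 became 107.3 and 155.3, which is 120% and 118%. Its log2 change was 0.25 with a standard error of 0.199 on the S. paradoxus scale (limma adjusted p = 0.956) and 0.42 relative to the median window (limma adjusted p = 0.038). Between DTR1, a spore wall transporter gene, and FZO1, a mitochondrial fusion gene (chrII:589383-589683), 156.1 and 213.0 became 186.3 and 238.9, 0.38 relative to the median window (limma adjusted p = 0.047). A subtelomeric window in YER188C-A (chrV:569724-570024) stood at 120% and 113% and passed the same test (limma adjusted p = 0.045). The other windows that passed were weak: the end of chromosome VII (chrVII:176-476) had 20.9 and 28.4 at 0 min, and a window in VBA5 (chrXI:660128-660428) had 11.1 and 9.47. At these last windows the counting intervals of at least 1 isolate took in a ratio of 1. At none of the 5 did the S. paradoxus scale give an adjusted p under 0.05. Centred on windows upstream of an ORF in place of all windows, 0 of the 5 passed (highest limma adjusted p = 0.341), and with tRNA windows left out 3 did.

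Windows just short of that test held similar values. CBP2, a mitochondrial splicing factor gene (chrVIII:25555-25855), stood at 115% and 118%. SSB1, which encodes a ribosome-associated Hsp70 (chrIV:43630-43930), went from 235.4 and 289.4 to 263.5 and 338.3. Between the SUMO ligase gene SIZ1 and the purine synthesis gene ADE8 (chrIV:1289074-1289374) the signal was at 120% and 112%, at the cyclophilin gene CPR4 (chrIII:238605-238905) at 115% and 111%, and in RPS9A (chrXVI:405199-405499) at 114% and 113%. RPL36A, a ribosomal protein gene (chrXIII:650832-651132), stood at 118% and 107%. In BRP1 (chrVII:483387-483687), isolate 1 had 343.0 and 440.5 while isolate 2 had 539.2 and 546.1, so only isolate 1 lay beyond counting error. Limma adjusted p at these 7 windows ran from 0.051 to 0.078 relative to the median window.

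Windows above their 0 min signal at 5 min differed in what they held at 10 min. Between YPT7, a vacuolar Rab gene, and the polo kinase gene CDC5 (chrXIII:267956-268256), 47.9 and 86.6 became 57.9 and 92.2 at 5 min, but the mean at 10 min was 28.3% of 0 min. Its 5 min signal lay above 0 min beyond counting error in isolate 1 only (in isolate 2, 439 and 442 reads). By contrast BRP1 stood at 122% at 10 min, DTR1/FZO1 at 116%, CPR4 at 105%, CBP2 at 102% and GCR1 at 94.1%.

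The kinds of window differed in their early loss. They were sorted in a fixed order into 29 chromosome ends (within 300 bp), 68 other subtelomeric windows (within 15 kb), 21 windows in the rDNA region, 238 over a tRNA gene, 221 with the summit up to 300 bp before an ORF, 319 inside an ORF and 222 others. With 2 isolates an exact permutation test cannot give a two-sided p below 0.5, so the differences between kinds were not tested and their values are given as a description.

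Windows over tRNA genes, which RNA polymerase III transcribes, showed the most uniform early loss of signal. The paper reported that its sites over tRNA genes and Ty elements all had relatively short apparent residence times and followed its decay model well. It still left them out of its residence time analysis. It gave as reasons that Rap1 has no known link to such genes and that strong transcription often yields ChIP artefacts. Whether the signal at these windows is bound Rap1 was not tested here. The 238 windows had median signals of 83.2 and 121 at 0 min and 75.6 and 99.0 at 5 min. Their median log2 change was -0.13 in isolate 1 and -0.29 in isolate 2, with a median of 86.5% left. In both isolates 221 of the 238 (92.9%) were lower, against 56.1% of all windows, and 0 were higher in both. The median change of tRNA windows lay below that of the other 880 windows by 0.140 in isolate 1 and by 0.158 in isolate 2 on the log2 scale. The others include stronger windows. Among the strength groups described below, those with median 0 min signals of 92.2 and 127 were nearest to tRNA windows (102). Each of them had median changes of -0.06 in isolate 1 and -0.23 in isolate 2, closer to the tRNA medians. The part of strength in the difference was not tested. Their changes had an SD of 0.084 across windows, against 0.19 over all windows, and the isolates ordered them loosely (Pearson correlation 0.23). None passed either limma test. The window of SUP17 (chrIX:248672-248972) was the lowest, from 404.3 and 620.0 to 320.7 and 379.4, and that of EMT5, an elongator methionine tRNA gene (chrX:390961-391261), was the highest, at 106% and 97.9%. At 10 min tRNA windows held a median of 32.5% of 0 min.

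**Figure D3:**
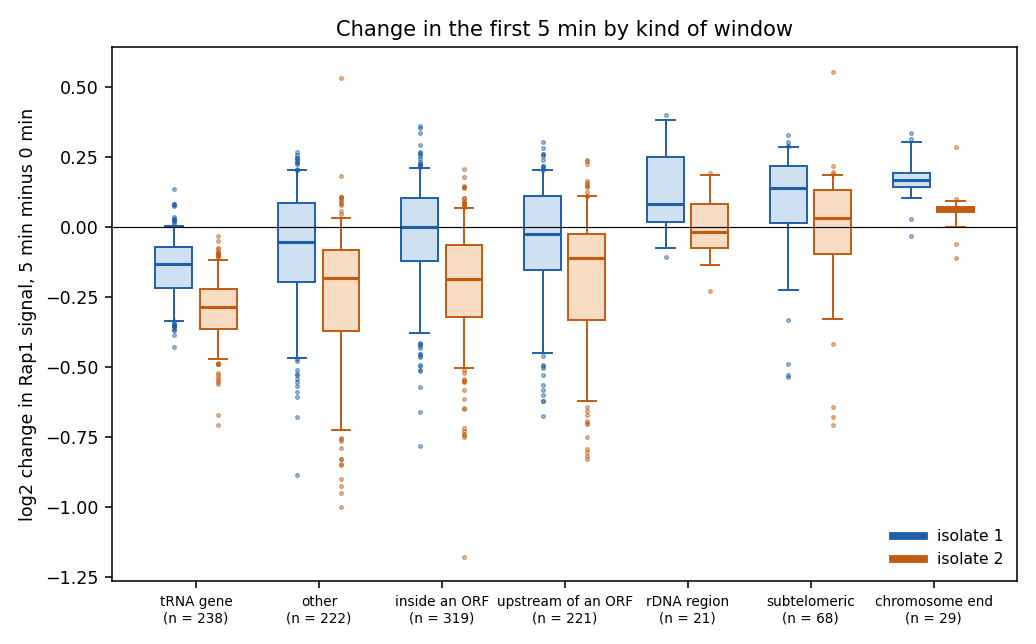
Log2 change in Rap1 signal from 0 to 5 min (y axis) by kind of window, for isolate 1 (blue) and isolate 2 (orange). Boxes give the quartiles and median, whiskers the 5th and 95th percentiles, and dots the windows outside them. tRNA windows sit lowest, with medians of -0.13 and -0.29, and chromosome ends sit highest, with medians of 0.17 and 0.07.

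Chromosome ends, where Rap1 binds the telomere repeats, kept their signal. At 27 of 29 (93.1%) it was above 0 min in both isolates, against 14.8% of all windows, and 1 was lower in both. Median signals went from 1297 and 1814 to 1471 and 1920, and the median log2 change was 0.17 in isolate 1 and 0.07 in isolate 2. The end of chromosome III (chrIII:120-420) had 13679 and 18945 at 0 min and 15214 and 19831 at 5 min. The ends held a median of 89.9% at 10 min. Among subtelomeric windows 41 of 68 (60.3%) were higher in both isolates and 13 (19.1%) lower in both, so this kind was mixed. Over all windows these shares were 14.8% and 56.1%. The strongest of them, on chrXII:11118-11418, stood at 110% and 102%, and windows on chrI:878-1178, chrXIII:6405-6705 and chrVII:1083699-1083999 stood at 121% and 112%, 120% and 115%, and 122% and 113%. Chromosome ends are alike in sequence, and how reads were shared among them was not examined.

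Genes of telomere-proximal families were counted whatever kind of window they had, and not all of them lie near a chromosome end. Of their 10 windows, 8 were lower in both isolates and 0 higher in both, against 56.1% and 14.8% of all windows. Their median log2 change was -0.28, against -0.11 over all windows. Relative to the median window 3 of the 10 fell, against 2.33% of all windows. The 10 windows are too few to set against these shares. FRE2, a ferric reductase gene (chrXI:11534-11834), kept 68.5% and 63.7%. ENB1, a siderophore transporter gene (chrXV:21442-21742), kept 64.5% and 67.8%. PAU6, of the seripauperin family (chrXIV:781419-781719), went from 170.3 and 247.5 to 121.1 and 154.2. The windows beside the Y′ helicase genes YRF1-3 and YRF1-7 stood at 95.3% and 83.2%, and at 101% and 83.9%. The RPS0B/FRE8 window, listed for FRE8, was the strongest of the list, from 1299 and 1880 to 1433 and 1816. It lies 241685 bp from the chromosome end, and the ENB1 window 21441 bp.

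The rDNA windows lay on both sides of 0, by position. The 8 windows over RDN25, the 25S rRNA gene, were all higher in both isolates, with a median log2 change of 0.18. The 13 others had a median of -0.05, with 1 higher and 5 lower in both. Over all windows 14.8% were higher and 56.1% lower in both. Over RDN25 (chrXII:461802-462102) the signal was 5300 and 9549 at 0 min and 6992 and 10868 at 5 min, 132% and 114%. The window with the highest mean 0 min signal of the table (chrXII:463479-463779) stood at 114% and 100.5%. The region is annotated as 2 copies, and 9 pairs of windows at the same place in the copies had changes within 0.0227 of each other, so a pair is not a pair of measurements. Input was also high there, with a median input signal of 37857 against 295 over all windows. The median 0 min ChIP signals were 7333 and 119, so ChIP lay further below input in the rDNA than over all windows. What part of the rDNA signal is bound Rap1 was not tested. The rDNA and chromosome end windows held 37.9% and 40.7% of the summed 0 min signal. The sum over all windows stood at 106% and 96.3% of 0 min, and without these kinds at 102% and 92.4%.

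At HML, the silent copy of the mating-type genes near the left end of chromosome III, the windows of both silencers, of the promoter and in YCL068C were above 0 min in both isolates. The HML-E silencer (chrIII:11089-11389) went from 596.8 and 801.6 to 728.7 and 933.8. The HML-p promoter window (chrIII:12995-13295) went from 797.5 and 974.3 to 880.7 and 1068, and the HML-I silencer (chrIII:14505-14805) from 606.9 and 892.7 to 750.5 and 937.2. The window in YCL068C (chrIII:11808-12108), between HML-E and HML-p, had 231.6 and 271.8 at 0 min and 251.6 and 307.8 at 5 min. That is 122% and 117% at HML-E, and 124% and 105% at HML-I. The active MAT-p window (chrIII:200151-200451), which drives the same genes, had 457.1 and 592.1 at 0 min and 454.1 and 580.5 at 5 min. Relative to the median window, HML-E was at 0.42 (limma adjusted p = 0.067), HML-I at 0.36, the window in YCL068C at 0.32, HML-p at 0.31 and MAT-p at 0.15, and none passed the test. On the S. paradoxus scale the limma adjusted p was 0.956 at HML-E and HML-I and 0.996 at HML-p. The order did not last. At 10 min the means were 60.9% of 0 min at HML-p, 63.8% at HML-E and 59.0% at HML-I, against 68.4% at MAT-p. In isolate 2, HML-E (75.6%) still lay above MAT-p (71.8%). The paper reported similar residence times at HML-p and MAT-p. The difference between HML-p and MAT-p was not tested.

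Ribosomal protein genes, the best-known targets of Rap1, held their signal at 5 min. The 115 windows are those where such a gene starts within 500 bp downstream of the summit. A window inside such a gene, as in RPS9A, was not counted for that gene. The 115 windows had median signals of 610 and 898 at 0 min and 636 and 864 at 5 min. The median log2 change was 0.11 in isolate 1 and -0.08 in isolate 2, and 0.02 for the mean of the isolates, against -0.11 over all windows. Of the 115, 14 were lower (12.2%) and 16 higher (13.9%) in both isolates, against 56.1% and 14.8% of all windows. The share higher in both was thus near that of all windows, and the share lower in both was smaller. Of the 115, 0 passed either test, but at 2.33% lower and 0.447% higher over all windows few could be looked for. Genes of the large subunit (70 windows, median 0.03) and the small subunit (49 windows, median 0.01) had values close to each other, with 4 windows counted for both. RPL2B, the strongest (chrIX:316227-316527), had 3593 and 4806 at 0 min and 3801 and 4600 at 5 min. RPL1B/MRM2, PRE2/RPL11A, RPS24A, RPS11B, RPS1A and RPS4A also lay between 91.7% and 109% in each isolate, with isolate 1 above and isolate 2 below 0 min. RPL18B was the exception: it kept 74.2% and 74.7%, from 123.8 and 186.3 to 91.9 and 139.2 (chrXIV:64613-64913), with a log2 change of -0.42, a standard error of 0.205 and a limma adjusted p of 0.649.

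Windows upstream of other ORFs lost more than those of ribosomal protein genes, and as much as the median window. The 155 with no ribosomal protein gene starting within 500 bp had a median log2 change of -0.11, the same as over all windows. In both isolates 101 were lower (65.2%) and 28 higher (18.1%), against 56.1% and 14.8% of all windows. The 66 with a ribosomal protein gene had a median of 0.01. Of the 155, 7 fell and 2 rose relative to the median window, against 2.33% and 0.447% of all windows. Of the 66, 0 passed in either direction, a number too small to set against these shares.

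Other known Rap1 targets were spread over the range. Over all windows 56.1% were lower and 14.8% higher in both isolates, and the lists that follow hold too few windows to set against these shares. Of 7 windows of translation factor genes, 3 were lower and 3 higher in both isolates (median -0.02). YEF3, which encodes elongation factor 3 (chrXII:636344-636644), was the lowest, from 200.4 and 292.5 to 146.6 and 195.1. TEF1 and TEF2, which encode the same elongation factor 1A, stood at 97.3% and 82.2%, and at 109% and 101%. HYP2, the eIF5A gene (chrV:85132-85432), was the highest, at 118% and 101%. Of 4 glycolysis windows, 3 were lower and 0 higher in both isolates (median -0.13). GPM1, the phosphoglycerate mutase gene (chrXI:164637-164937), was lowest, with 74.8% and 75.5% left. ENO1 kept 97.6% and 88.5%, and the window of YBR196C-A and PGI1 101% and 88.4%.

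Of 11 windows of genes for ribosome biogenesis or for RNA polymerase I and III, 4 were lower and 3 higher in both isolates (median 0.01). SSF2, needed for large subunit assembly (chrIV:1087024-1087324), kept 73.0% and 61.6%, while BUD22, REH1 and YCG1/UTP4 stood at 109% and 102%, 116% and 98.4%, and 99.6% and 92.9%. Of 6 chaperone and heat shock windows, 4 were lower and 2 higher in both (median -0.13). HSF1/MPS2 kept 88.9% and 88.2%, MDJ1 91.6% and 96.3%, and PIM1 102% and 104%. HSP78, a mitochondrial disaggregase gene, differed between isolates, with 99.8% and 70.9%. Of 8 amino acid and nucleotide synthesis windows, 5 were lower and 2 higher in both (median -0.22), with HIS4 (chrIII:68398-68698) going from 386.0 and 485.8 to 338.7 and 383.1. HOM6 stood at 101% and 98.9%, and the window over the tRNA gene YNCL0037W, listed for an ORF within 500 bp, at 83.9% and 69.2%. The pheromone response gene SST2 (chrXII:1041492-1041792) had 187.3 and 242.4 at 0 min and 213.5 and 254.6 at 5 min, above 0 min in both. In none of these lists did a window pass either test, apart from the telomere-proximal families. At 2.33% lower and 0.447% higher over all windows, few could be looked for in lists of this size.

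Early loss went with the strength of a window. Outside tRNA, rDNA, subtelomeric and chromosome end windows, 762 windows were cut into 5 groups of equal size by their mean log2(signal + 1) over the 4 libraries. From weakest to strongest, the median log2 changes were -0.14, -0.14, -0.14, -0.07 and -0.00, and 7, 6, 9, 1 and 0 windows fell relative to the median window. The SD of the change across windows was 0.21 in the weakest group and 0.089 in the strongest. Across the 762 windows the Pearson correlation of change with log2 mean signal was 0.28, and with log2 input signal -0.13, both as descriptions. The windows had been called in 0 min libraries, which also enter the change, so a window taken for a high 0 min value would tend to be lower when measured again. The part of this in the values of weak windows was not tested.

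Ribosomal protein windows were also stronger than others within these groups. The others include windows that lie inside a ribosomal protein gene. They made up 80 of the 153 windows of the strongest group, where their median 0 min signal was 1049 against 718 for the other 73, and their median change 0.01 against -0.05. In the other groups the 35 ribosomal protein windows had a median 0 min signal of 330 against 102 for the 574 others, and a median change of 0.04 against -0.14. The part of strength in the difference was not tested. Of the 73 others in the strongest group, 41 were lower (56.2%) and 8 higher (11.0%) in both isolates, near the 56.1% and 14.8% of all windows.

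**Figure D4:**
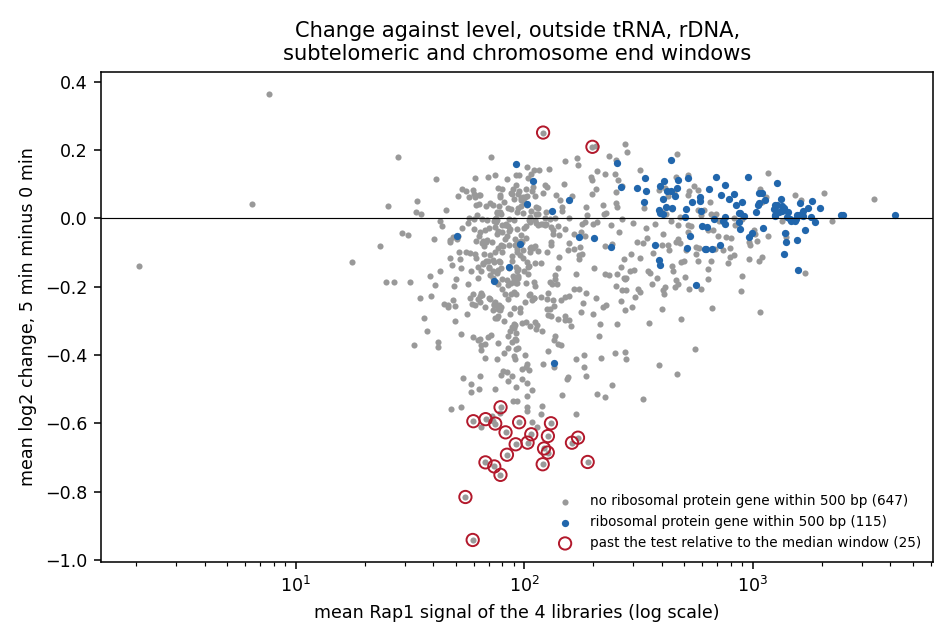
Mean log2 change from 0 to 5 min (y axis) against the mean Rap1 signal of the 4 libraries (x axis, log scale) for the 762 windows outside tRNA, rDNA, subtelomeric and chromosome end windows. Blue points are the 115 windows with a ribosomal protein gene that starts within 500 bp downstream of the summit. Grey points are the others, which include windows inside such genes. Red circles are the 25 windows that passed the test relative to the median window, 23 lower and 2 higher. All 23 lower windows had a 0 min signal of at most 236, and the strongest windows lie near 0.

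The order of windows at 5 min was seen in part in libraries that did not enter it. The windows were cut into 10 groups of equal size by their change from 0 to 5 min, and the change from 10 to 20 min was read in each. It had a median of -1.26 in the group with the largest early loss and of -0.49 in the group with the highest values, against -1.07 over all windows. The Pearson correlation of the changes was 0.38 across 1118 windows and 0.31 across the 762 outside the special kinds, descriptions that share no library but share isolates and windows. The first group held 32 windows upstream of an ORF, 26 inside one, 37 others, 14 tRNA windows and 3 subtelomeric ones, with 1 ribosomal protein window. The last group held 34 subtelomeric, 20 chromosome end and 9 rDNA windows, 0 tRNA windows and 11 ribosomal protein windows.

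**Figure D5:**
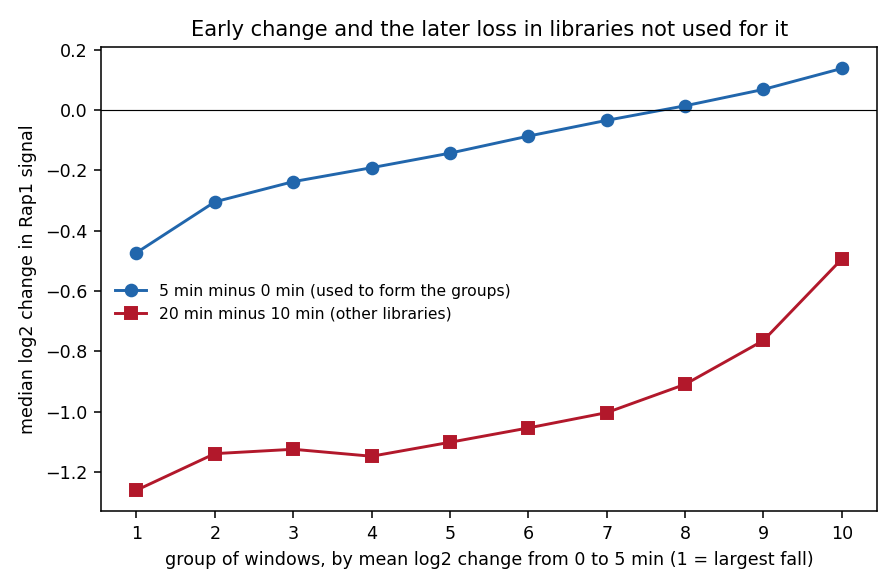
Median log2 change in Rap1 signal (y axis) in 10 groups of the 1118 windows ordered by their mean change from 0 to 5 min (x axis, 1 is the largest fall). Blue circles give the change that formed the groups, and red squares the change from 10 to 20 min in other libraries, which ran from -1.26 in the first group to -0.49 in the last.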

How the data were processed

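The authors called bases with CASAVA 2.2, aligned reads with Bowtie2 to a modified sacCer3 joined to an S. paradoxus genome, handled them with SAMtools, called summits with MACS in 0 min ChIP against an untagged sample (q under 0.01), and counted reads within 150 bp of each summit. They deposited these as a signal: reads for every 1000000 S. paradoxus reads outside the rDNA. The deposited S. paradoxus count of each library was used to recover reads per window, and 100% of values came out whole within 0.01 read. In 1 table, 1 line naming no window and 14 columns of per-sample values were not used. Window positions are those of the files, counted from 1.

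limma 3.58.1 in R 4.3.3 was fitted to log2(signal + 1) of 16 ChIP libraries (8 times, 2 isolates) with time and isolate as terms, on the S. paradoxus scale and relative to each library's median window, with Benjamini-Hochberg adjustment over 1118 windows and a threshold of 0.05. A count model was not fitted. The isolate number pairs libraries because it marks the same strain. Deviations of same-isolate libraries from their time's mean correlated by 0.41 between 0 and 5 min, and by -0.21 to 0.41 (median 0.17) over 28 pairs of times. Isolates are separate strains of 1 genotype. The isolate term takes out a steady difference between them. The p-values therefore rest on how the 2 isolates differ in their course over all 8 times, later libraries included, and not on 0 and 5 min alone.

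Named were the 10 windows with the lowest and the 10 with the highest mean change, of the same sign in both isolates and with a mean signal of at least 50, among all windows and outside tRNA, rDNA, subtelomeric and chromosome end windows, the 5 strongest, 7 loci, and the 3 strongest of each of 8 gene lists (ORF start within 500 bp of the summit). Windows that passed a test, and SUP17, EMT5, RPL18B, YEF3, SSF2, HSP78 and SSB1, were named after their values were seen. The window in YCL068C was named outside these rules. The comparison and the gene lists were chosen with earlier results of these data known. Gene positions came from RefSeq (R64). Alternatives covered the block, the libraries in the fit, the pseudocount (0.1 and 5), a minimum signal, the variance model, the scaling, and each library left out. A further sequence stretch is not reported here.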

Additional observations from a re-analysis of the deposited data

How the results depend on the processing

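The numbers of windows that passed limma depended on the fit. On the S. paradoxus scale the count of lower windows was 1, against 0 without the replicate block, 224 with the replicate block and the 4 libraries of 0 and 5 min alone, 0 with a pseudocount of 0.1, 2 with 5, 0 with a variance trend, 42 after scaling to the total over all windows, and 0 to 0 with 1 library left out. The count of higher windows was 0 and became 4 with the 4 libraries alone. Relative to the median window, the 26 lower windows became 1 without the replicate block, 135 with the 4 libraries alone, 3 with a pseudocount of 0.1, 46 with 5, 40 when centred on windows upstream of an ORF, and 1 to 6 with 1 library left out. The 5 higher windows became 0, 349, 0, 38 and 0 in the same order of settings, then 43 with a variance trend, 3 without tRNA windows, and 0 to 1 with 1 library left out. All 26 lower windows kept their sign under every alternative run, as did all 5 higher ones, of which 3 remain above a minimum signal of 50. Each had been picked from these libraries and had moved the same way in both isolates, so a kept sign is no separate support. The fit with 4 libraries has 1 residual degree of freedom per window, and the cause of its larger counts was not tested. The median change over all windows was -0.18 to -0.04 and that of tRNA windows against the others -0.16 to -0.14 with 1 isolate left out. Of 1992 recomputed values for named windows, 0 reversed, 190 lost and 151 gained the threshold, and 295 moved by more than the spread between isolates. With 573.5 to 718.5 reads in a median window, counting error alone leaves small changes undetectable, and a standard error of 0.21 on the log2 scale leaves most changes at 5 min within the spread.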
